A study of Caenorhabditis elegans with 6 samples.

Results

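The respiratory chain of Caenorhabditis elegans was examined through 44 of its genes, of 31180 genes measured by RNA-seq. The genes were chosen by name: 12 are the protein-coding genes of the mitochondrial genome, and 32 lie in the nucleus and encode subunits of the same complexes or of the nuclear-encoded complex II. The nuclear list does not hold every subunit, and statements on the nuclear genes of a complex cover its listed genes. All 44 were found, and all had enough reads to be described. RNA came from whole N2 wild-type animals (Bristol strain) at L4, the last larval stage, fed on OP50 bacteria. In the CTRL group, animals were kept at 20°C (3 libraries), and in the HS group, animals were shifted to 35°C for 4 h (3 libraries). Ribosomal RNA was removed from total RNA before stranded libraries were made, without selection for poly(A) tails.

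Cells draw most of their ATP from the respiratory chain in the inner mitochondrial membrane. Complex I takes electrons from NADH and complex II from succinate, ubiquinone carries them to complex III, and cytochrome c carries them on to complex IV, which reduces oxygen. Complexes I, III and IV pump protons, and complex V, the ATP synthase, lets them flow back to make ATP. Mitochondrial genes are read from a small circular genome by an RNA polymerase of their own, and the long transcripts are then cut into mRNAs, rRNAs and tRNAs. Every complex except complex II joins subunits from both genomes, so that the mRNAs of one machine are made in separate compartments.

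The value of each gene is the mean of its normalized read counts over the 6 libraries, in which counts were divided by the DESeq2 size factor of each library. CTRL and HS enter this mean together. It is therefore a level of neither condition, and the change of these genes with heat was not analysed here. Because a long gene collects more reads, levels of different genes were set side by side only after division by the summed exon length in kilobases (normalized counts per kb). Library values were not used here, so no spread between replicates and no test can be given, and the statements below are descriptions. The counting error can still be bounded. Values that stand for 1 count in 1 library showed the 6 scaling factors to run from 0.536 to 1.47. A mean of 38.7, the lowest of the 44 genes, thus stood for at least 124 counts. Whether a count is a read or a read pair is not given in the sources used here. If counts are independent, the counting error was at most 8.97% for that lowest gene, ndfl-4, and at most 1.63% for the nuclear genes. This error leaves out all differences between animals and libraries.

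Over all genes, normalized counts summed to 33024039, of which 46.9% fell on rRNA genes and 47.5% on protein-coding genes. The 12 mitochondrially encoded genes took 0.274% of the total and the 32 nuclear genes 0.585%. Markers of body wall muscle (unc-54, myo-3), germ line (pgl-1, glh-1) and sperm (msp-3, msp-142) were in the top 10% of 18768 protein-coding genes by level per kb. Among markers of the hypodermis, rol-6 was in the top 10% and dpy-7 was not, and both lay with those of the intestine (ges-1, elt-2) above the median protein-coding gene, and those of neurons (rab-3, unc-119) lay at percentiles 46.4 and 45.7. The sperm genes belong to a family of near-identical copies, so their single values are uncertain. What share each tissue gave to the level of a respiratory chain gene was not tested, and in whole animals fewer cells of a type and less RNA per cell cannot be told apart.

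Genes of the respiratory chain were among the more abundant mRNAs of the animal, with 1 gene of the 44 below the median protein-coding gene. The median level was 4687 normalized counts per kb for all 44 genes, against 97.3 for protein-coding genes in general. In the top 10% of protein-coding genes were 39 of the 44, and 5 stood in the top 1%: ctc-1, ctc-3, ctb-1, atp-2 and atp-5. Nuclear genes were the more uniform set. Their levels ran from 838 for sdha-1 to 22361 for atp-2, a 26.7-fold range, with a standard deviation of 0.93 on the log2 scale across genes. Mitochondrially encoded genes ran from 60.4 for nduo-2 to 24953 for ctc-1, a 413-fold range, with a standard deviation of 2.95 on the log2 scale across genes. Thus the highest and the lowest of the 44 genes by level per kb of exon were both carried on the mitochondrial genome. The first place is close: ctc-1 exceeded atp-2 by 1.12-fold per kb of exon, but the ratio was 0.950 per kb of coding sequence.

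**Figure D1:**
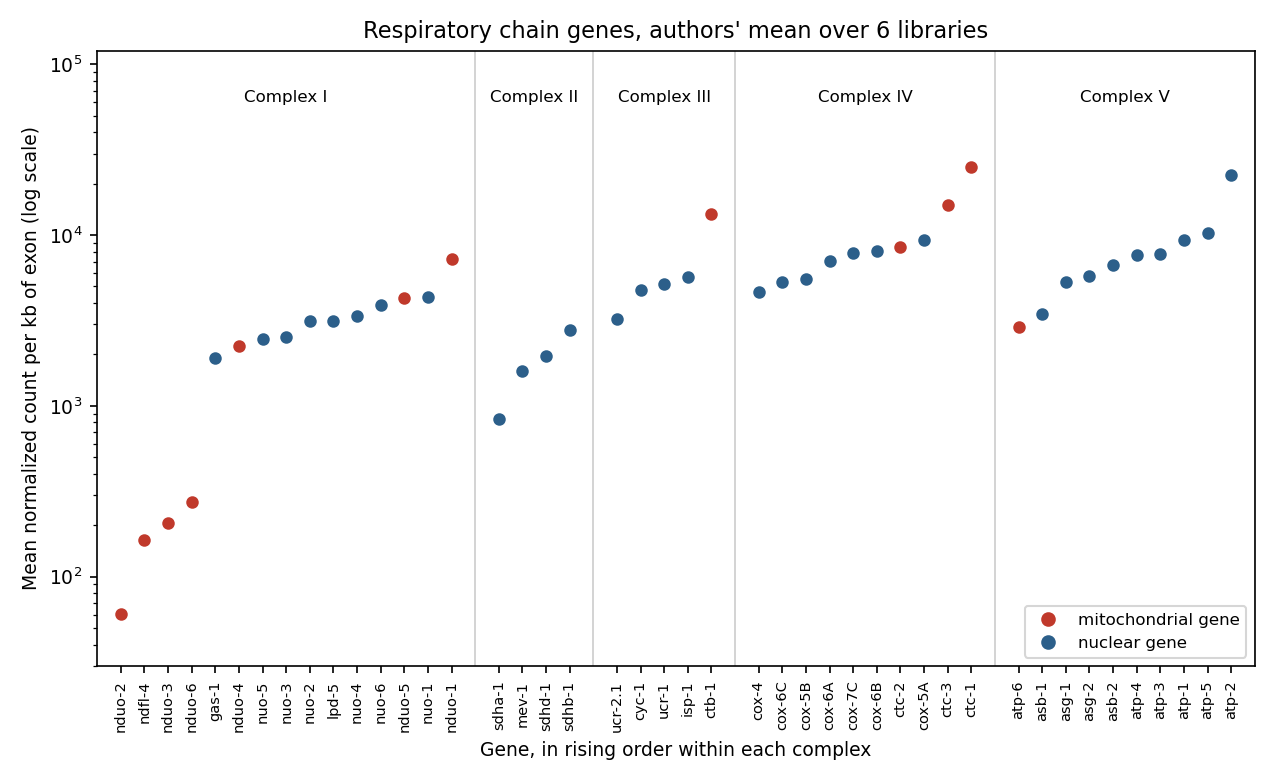
Mean normalized count per kb of exon (log scale) of the 44 respiratory chain genes, ordered by complex and by rising level within each complex. Each point is a single gene, red for the mitochondrial genome and blue for the nucleus; values are means over the 6 libraries, so no error bars can be drawn. The 4 lowest points, from 60.4 to 274, are complex I subunits encoded in the mitochondrion, and the highest point is ctc-1 at 24953.

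Complex IV, cytochrome c oxidase, holds the catalytic core made in the mitochondrion. ctc-1 encodes the subunit with the oxygen-binding heme and copper site, ctc-2 the subunit that receives electrons from cytochrome c, and ctc-3 a further core subunit. The level of ctc-1 was 24953 normalized counts per kb (rank 98 among protein-coding genes), that of ctc-3 was 15027 (rank 143) and that of ctc-2 was 8571 (rank 223). ctc-1 was therefore 1.66-fold above ctc-3 and 2.91-fold above ctc-2, although all 3 are read from the same strand. By mean normalized count, without length, ctc-1 had 39974, ctc-3 had 11601 and ctc-2 had 6000.

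The 7 listed nuclear subunits of complex IV surround this core and help to assemble and regulate it. They lay close together, from 4615 to 9311 normalized counts per kb, a 2.02-fold range. cox-5A was the highest at 9311, followed by cox-6B at 8057, cox-7C at 7842 and cox-6A at 7005. Below these lay cox-5B at 5563, cox-6C at 5321 and cox-4 at 4615. The median of the 3 mitochondrially encoded subunits was 2.15-fold above that of the 7 nuclear ones, and ctc-1 and ctc-3 exceeded each of these 7, whereas ctc-2 lay below cox-5A. Per kb of coding sequence the ratio of the medians was 1.31, since the nuclear mRNAs carry more untranslated sequence. The annotated cox-6B gene reaches across 18 other genes on chromosome III (2699663 to 2786859) with only 572 bases of exon, of which 8 are shared with nduc-2.

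Complex III passes electrons from ubiquinol to cytochrome c and has a single mitochondrially encoded subunit, cytochrome b, the product of ctb-1. ctb-1 had 13295 normalized counts per kb (rank 153) and stood above the 4 listed nuclear subunits. isp-1, which encodes the Rieske iron-sulfur protein, had 5654, and cyc-1, which encodes cytochrome c1, had 4759. The core proteins ucr-1 and ucr-2.1, which face the matrix, had 5162 and 3220. The levels of these 4 genes fell within a 1.76-fold range. ctb-1 was 2.68-fold above their median and 2.35-fold above isp-1, the closest of the 4. Nuclear genes of complex III outside the list ran wider, with ucr-11 at 6849, ucr-2.3 at 1514 and ucr-2.2 at 1418, all below ctb-1.

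Among the 44 genes, those of complex I had the widest range of levels, and both the highest and the lowest of them are mitochondrially encoded. The 8 listed nuclear subunits stayed within a 2.28-fold range, from 1913 normalized counts per kb for gas-1 to 4359 for nuo-1. nuo-1 encodes the flavoprotein that binds NADH, and nuo-5, at 2455, encodes the large iron-sulfur subunit beside it. gas-1, best known from mutants that are hypersensitive to volatile anaesthetics, encodes a subunit of the arm that leads electrons to ubiquinone, as does nuo-2 at 3121. The accessory subunits lay in the same range, with nuo-6 at 3916, nuo-4 at 3371, lpd-5 at 3134 and nuo-3 at 2517. nuo-2 and lpd-5 differed by less than their counting error, so their order is not determined. The nuo-3 value depends on the length it is divided by: per kb of coding sequence nuo-3 reached 6904. In the gene models used here for lengths, 783 of its 1078 exon bases are shared with Y57G11C.1147 on the same strand. Y57G11C.1147 has no value among the measured genes, so an effect of this overlap on the nuo-3 count was not tested. nuo-3 is nevertheless left out wherever genes with shared exon bases are set aside.

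The 7 mitochondrially encoded subunits of complex I form its membrane arm, through which protons are pumped. They fell into a higher and a lower set. nduo-1 had 7285 normalized counts per kb and exceeded the 8 listed nuclear subunits of the complex. nduo-5 had 4298 and nduo-4 had 2232, both within the nuclear range. The remaining 4 lay below each of the 32 nuclear genes: nduo-6 had 274, nduo-3 had 207, ndfl-4 had 165 and nduo-2 had 60.4. No gene of the 44 lay between nduo-6 at 274 and sdha-1 at 838. nduo-1 exceeded nduo-2 by 121-fold, although the 2 genes have nearly the same length, with 873 and 881 bases of exon. Together the 4 low genes took 0.311% of the counts of the 12 mitochondrially encoded genes, whereas ctc-1 alone took 44.2%, and ctc-1, ctb-1 and ctc-3 took 73.4%. For these low genes the mean normalized counts were 120 (nduo-6), 69.7 (nduo-3), 53.2 (nduo-2) and 38.7 (ndfl-4). Each of these means stands for at least 124 counts in the 6 libraries. The counting error of these genes, at most 8.97% if counts are independent, was smaller than each step in this order, but the spread between libraries is not known.

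Complex II, succinate dehydrogenase, also works in the citric acid cycle, pumps no protons and is encoded wholly in the nucleus. Among the 5 complexes its listed nuclear genes had the lowest median, 1784 normalized counts per kb. sdhb-1, the iron-sulfur subunit, had 2791, the membrane anchors sdhd-1 and mev-1 had 1965 and 1603, and sdha-1 (chromosome X, bases 8542757 to 8546021), the flavoprotein that oxidizes succinate, had 838. The last was the only nuclear gene of the 32 outside the top 10% of protein-coding genes, at percentile 88.3. sdhb-1 exceeded sdha-1 by 3.33-fold. Their products are joined in equal number in the enzyme, but sdha-1 is not the only gene for the flavoprotein. A second flavoprotein gene, sdha-2, had 1298, which is 1.55-fold above sdha-1.

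Complex V made up the largest part of the counts, with 35.6% of those on the 44 genes. Complex IV had 30.5%, complex I 16.97%, complex III 14.4% and complex II 2.57%. These shares are not divided by length and depend on how many genes of each complex are listed. Per kb of exon, the median over all listed genes was 7950 in complex IV and 7129 in complex V. atp-2 (chromosome III, bases 5228417 to 5230536), the beta subunit that carries the catalytic sites, had 22361 normalized counts per kb (rank 109) and took 22.3% of the counts on the nuclear genes. atp-1, the alpha subunit that alternates with beta in the catalytic ring, had 9401, so that atp-2 was 2.38-fold higher. The stalk subunits atp-5, atp-3 and atp-4 had 10308, 7706 and 7610. The 9 listed nuclear genes of the ATP synthase stood above its single mitochondrially encoded subunit. atp-6, which forms part of the proton path, had 2878, and the ratio to the nuclear median was 0.378. atp-6 begins within the last bases of nduo-1, with 2 bases shared, and nduo-1 had 2.53-fold more normalized counts per kb.

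The ATP synthase also has paired genes for the same subunit. For subunit b, asb-2 on the X chromosome had 6648 normalized counts per kb and asb-1 on chromosome III, which is known as the germ line form, had 3458, a 1.92-fold difference. For subunit g, asg-2 on the X chromosome had 5756 and asg-1 on chromosome I had 5306, a 1.08-fold difference. asb-1 was the lowest of the 9 nuclear genes, and without it the lowest was asg-1. These ratios cover whole animals and not single tissues.

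Set against each other as whole groups, mitochondrially encoded and nuclear genes had medians of 3588 and 4961 normalized counts per kb, a ratio of 0.723. The direction of this ratio depended on how it was taken. Among genes with at least 500 bases of exon it was 1.62 (9 mitochondrially encoded and 28 nuclear genes), and among genes that share no exon base with another gene it was also 1.62 (2 and 21 genes). Without division by length it was 1.103. By the ratio of medians, mitochondrially encoded subunits were above the listed nuclear ones within complexes III and IV and below them in complex V. This held under each of these settings that gave a value. In complex IV it is a statement on medians only, since ctc-2 lay below cox-5A. Little could change there, since the limit of 500 bases removes none of their mitochondrially encoded genes, and complexes III and V have no such gene free of shared bases. In complex I the ratio of the medians was 0.0875, but it was 1.04 once genes under 500 bases were set aside, which removes nduo-6, nduo-3 and ndfl-4 and keeps nduo-2.

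**Figure D2:**
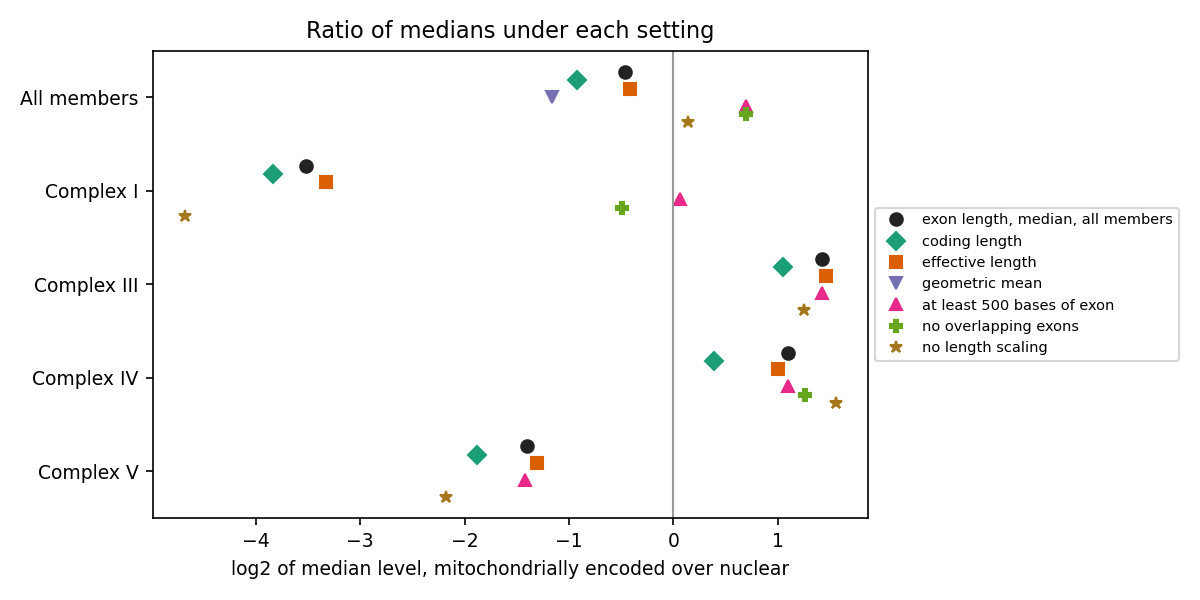
log2 ratio of the median level of mitochondrially encoded over nuclear genes, for all members and within each complex that has both. Each symbol is a setting of the calculation; the grey line marks equal medians. Complexes III and IV stay to the right of the line and complex V to the left, while the ratio over all members and that of complex I appear on both sides.

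Length did not order the genes in the same way in both genomes. ndfl-4, nduo-3 and nduo-6, none longer than 437 bases, were the shortest mitochondrially encoded genes and 3 of the 4 lowest. Nuclear genes of similar length, such as cox-7C with 389 bases and cox-6C with 400 bases, had 7842 and 5321 normalized counts per kb. nduo-2, the lowest gene of all, was longer than the median mitochondrially encoded gene (881 against 822.5 bases). Exon bases shared with neighbouring genes were few for the mitochondrially encoded genes. nduo-2 shared 29 bases with the tRNA genes on either side of it, ctc-1 shared 7, and nduo-6, ndfl-4 and nduo-3 shared 1 each. Reads of 100 bases can span such junctions, and how reads that touch several genes were counted is not given in the sources used here, so the part of read assignment in the low values was not tested.

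**Figure D3:**
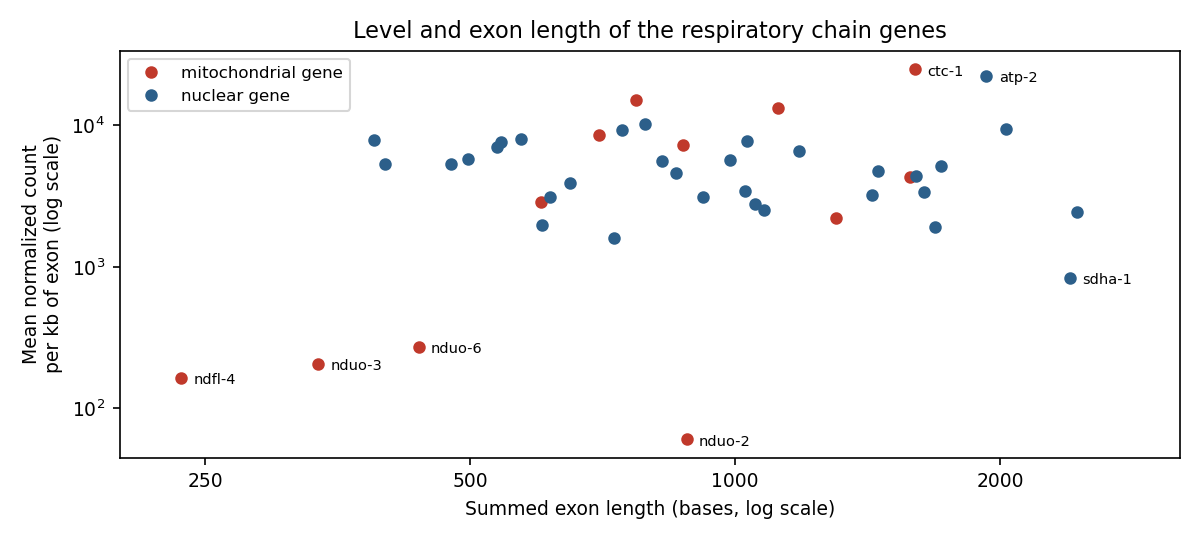
Level (mean normalized count per kb of exon) against summed exon length in bases, both on log scales, for the 12 mitochondrially encoded (red) and 32 nuclear (blue) genes. The 3 shortest red genes lie between 165 and 274, below every blue gene, and 2 of them are shorter than the shortest blue gene (389 bases). nduo-2 lies lowest at a length of 881 bases.

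The order of genes along the mitochondrial genome (WBcel235) gave no steady rise or fall of level. All 36 genes of this genome are annotated on the plus strand: 12 for proteins, 2 for rRNAs and 22 for tRNAs. nduo-6 (bases 113 to 549) and ndfl-4 (549 to 783) come first and were low, and after the small-subunit rRNA come nduo-1 (1763 to 2635) and atp-6 (2634 to 3235) with 7285 and 2878 normalized counts per kb. nduo-2 (3389 to 4269) then stood at 60.4, between atp-6 and ctb-1 (4504 to 5621) at 13295. The next genes, ctc-3 (5678 to 6449), nduo-4 (6506 to 7808) and ctc-1 (7827 to 9428), went from 15027 to 2232 and to 24953. ctc-2 (9649 to 10348) followed with 8571, and past the large-subunit rRNA, nduo-3 (11356 to 11691) at 207 directly adjoined nduo-5 (11691 to 13272) at 4298, a 20.7-fold step between genes that share 1 base. High and low mRNAs thus alternated along the same strand.

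Even after depletion, rRNA dominated the reads of the mitochondrial genome. Its 2 rRNA genes had mean normalized counts of 264291 and 140047 and held 81.7% of the counts of the 36 genes, 4.47-fold more than the 12 mRNAs together. The 22 tRNA genes, which are shorter than a read, had between 0.117 and 12.6 and 87.1 in sum, so they cannot be compared with the mRNAs as levels.

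**Figure D4:**
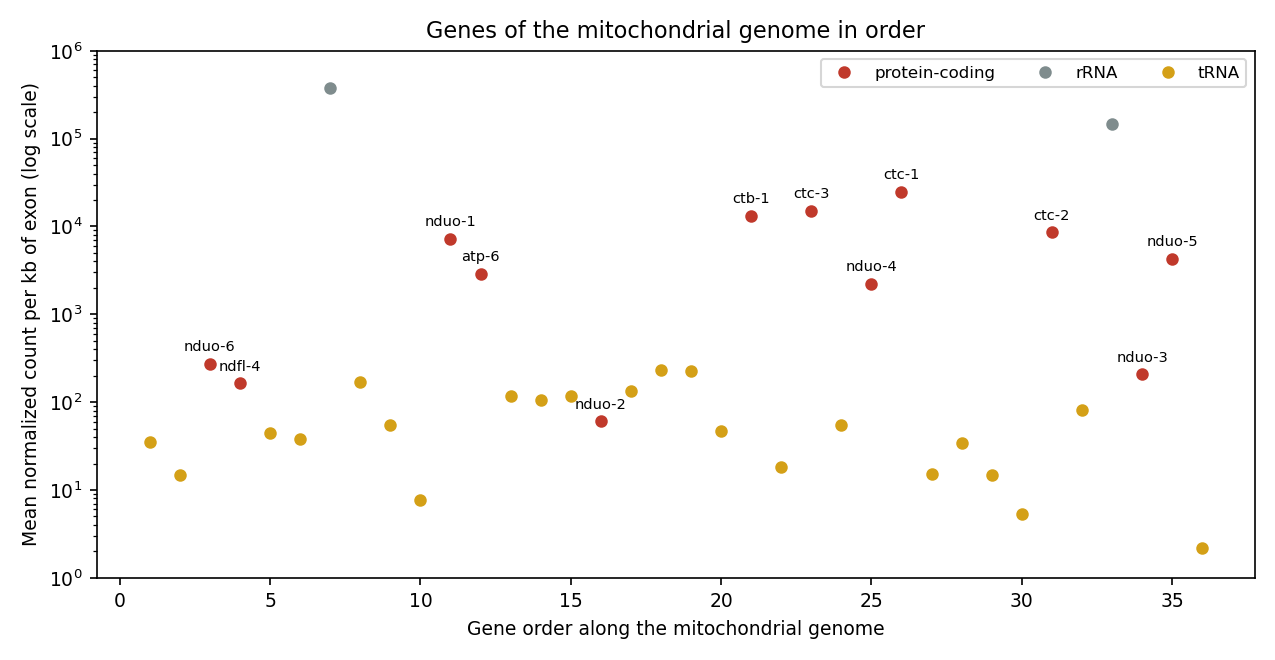
Mean normalized count per kb of exon (log scale) of the 36 genes of the mitochondrial genome in their order along it: protein-coding genes in red, rRNA genes in grey and tRNA genes in yellow. Red points jump between 60.4 (nduo-2) and 24953 (ctc-1) with no trend along the order, and the 4 low red points, nduo-6, ndfl-4, nduo-2 and nduo-3, lie in 3 separate stretches.

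Nuclear genes of the chain were spread over all 6 nuclear chromosomes, with 10 on I, 8 on III, 5 on X and 3 each on II, IV and V. The 5 on the X chromosome (asb-2, asg-2, ucr-2.1, gas-1 and sdha-1) had a median of 3220 normalized counts per kb, and the 27 others had a median of 5162. The X chromosome was not the lowest, since the 3 genes on chromosome II had a median of 2791. Medians of the listed genes on I, III, IV and V were 5032, 6084, 5321 and 7610. All protein-coding genes of the X chromosome had a median of 52.3. On chromosomes I, II, III, IV and V this median was 225.6, 98.1, 228.9, 121.2 and 33.6. Introns were present in all 32 nuclear genes, whereas each mitochondrially encoded gene is a single exon.

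Other genes of the pathway, 40 in all, were also measured, and 39 of them lay above the median protein-coding gene. Further subunits and paralogs were the most abundant of these lists, with a median of 2527 normalized counts per kb and 12 of 13 in the top 10%, from hpo-18, the epsilon subunit of the ATP synthase, at 7240 down to mai-1, an inhibitor of the ATP synthase, at 164. Assembly factors lay lower, with a median of 461 and 1 of 10 in the top 10%. Among them cox-14 was the highest at 1484, and sft-1, an assembly factor of complex IV, was the lowest at 177. Electron carriers and the enzymes of ubiquinone synthesis had a median of 575 and 2 of 10 in the top 10%, with cyc-2.1, a cytochrome c, at 13708 and coq-4 at 289. The 3 genes for copying and reading the mitochondrial genome were hmg-5, a DNA-packaging protein, at 881, the RNA polymerase rpom-1 at 328 and the DNA polymerase polg-1 at 123. Of the 4 adenine nucleotide carriers, which exchange ADP for ATP across the inner membrane, ant-1.1 reached 34720, above every gene of the 44, and ant-1.2 had 5.97.

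For scale, 78 genes of cytosolic ribosomal proteins had a median of 38865 normalized counts per kb and 69 genes of mitochondrial ribosomal proteins a median of 887. The respiratory chain genes, with 4687, lay between these sets. These differences were not tested, since genes are not replicates.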

How the data were processed

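Total RNA of whole L4 animals was sequenced in 3 CTRL and 3 HS libraries as paired-end reads of 100 bases. The authors trimmed reads with fastq-mcf, aligned them to WS235 (WBcel235) with STAR, counted them on genes of Ensembl 88 with FeatureCounts and compared the conditions in DESeq2. Their versions are not given in the sources used here. The signal value of each gene, deposited by the authors, is the mean over the 6 libraries of counts divided by DESeq2 size factors, and it was the only column used. Columns of the authors' own comparison (log2 fold change, its standard error, the Wald statistic, p and adjusted p) were not used. No test was therefore run, and the test planned for values of single libraries could not be made.

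Exon and coding lengths, positions and biotypes came from Ensembl 115 (WBcel235), in which 30963 of the 31180 genes have a position. Later gene models can differ from those used for counting. Nuclear genes were matched by symbol. Mitochondrial genes were matched by position (at least 80% of the gene) to RefSeq gene names of the same assembly, which were then written as worm gene names. Scaling factors of the libraries were read from low values that recur in at least 20 genes, since those stand for one read pair in one library, and this step was tested on simulated data. Libraries were not assigned to conditions by them. Alternatives were other lengths, summaries, denominators and gene filters. The members and lists were chosen with earlier results of these data known, and the alternatives for ratios within complexes were chosen after seeing the data. By rule, all members and the highest and lowest gene of each other list were named. The tissue markers, genes that share exon bases with members, rpom-1 and paralogs or further subunits outside this rule (sdha-2, ucr-2.2, ucr-2.3, ucr-11, nduf-2.2, cyc-2.2, ant-1.3, ant-1.4 and mai-2) were named after their values were seen. Python 3.11.15, pandas 2.3.3, numpy 2.4.6 and matplotlib 3.10.9 were used.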

Additional observations from a re-analysis of the deposited data

How the results depend on the processing

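No paired analysis was possible because only the mean over the 6 libraries was used, and for the same reason replicates could not be left out and a change with heat could not be computed. Of 40 alternative values, 4 reversed a direction, 34 moved a value and 2 left it as it was; no spread exists to judge the size of a move.

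With rRNA genes left out of the total, mitochondrially encoded genes held 0.516% and nuclear genes 1.103% of normalized counts, and of protein-coding counts alone they held 0.577% and 1.23%. The log2 ratio of the medians of mitochondrially encoded over nuclear genes was -0.47, and it was -0.92 per coding length, -0.41 with the exon length less 99 bases (effective length) and -1.16 with geometric means. It reversed to 0.70 for genes of at least 500 bases, to 0.70 without shared exon bases and to 0.14 without length scaling. Within complex I it went from -3.51 to -3.83 per coding length, -3.32 per effective length, -0.49 without shared exon bases (1 mitochondrially encoded and 3 nuclear genes) and -4.67 without length scaling, and it reversed to 0.062 at 500 bases. For complex III, 1.42 became 1.05, 1.46 and 1.25 by coding length, effective length and no scaling. For complex IV, 1.101 became 0.39, 1.00 and 1.55, and 1.26 without shared bases. For complex V, -1.403 became -1.88, -1.31 and -2.18, and -1.42 at 500 bases. Without shared bases, complexes III and V kept no mitochondrially encoded gene. These within-complex alternatives were chosen after seeing the data.

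Among 9865 protein-coding genes with a mean count of at least 100, the median percentile moved from 97.1 to 97.4 for the 9 mitochondrially encoded genes that passed and from 98.0 to 96.1 for the nuclear genes. Nuclear medians per kb in complexes I to V became 3005, 1647, 4599, 6630 and 7645 as geometric means and 3941, 2433, 6486, 11604 and 10658 per coding length. Complex II was lowest under each, whereas complexes IV and V changed places per coding length.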

Other observations

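Cytochrome c, the adenine nucleotide carriers and the ATP synthase inhibitors are encoded by paralogs. In each, the highest paralog exceeded the others by more than in the paired ATP synthase genes. cyc-2.1 had 13708 normalized counts per kb and cyc-2.2, the other cytochrome c gene, had 1400, a 9.79-fold difference. Among the adenine nucleotide carriers, ant-1.1 exceeded ant-1.3 by 52.1-fold and ant-1.4 by 64.0-fold. The lowest carrier, ant-1.2, had 5.97 normalized counts per kb, from a mean normalized count of only 5.39. Of the inhibitors of the ATP synthase, mai-2 exceeded mai-1 by 28.9-fold. The paralogs of chain subunits lay closer together, with ucr-2.1 at 2.27-fold and 2.13-fold of ucr-2.2 and ucr-2.3, and gas-1 at 1.50-fold of nduf-2.2. These pairs were chosen after their values were seen. How reads that match several paralogs were counted is not given in the sources used here, so the values of close copies are uncertain.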
